A study of Mus musculus with 2 samples.

Results

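Neurotrophins, the related ligand GDNF and their receptors were examined in cultures described by the study as mouse cavernous endothelial cells (MCECs) and kept in high glucose. The group was chosen by gene symbol and holds 8 genes of the 23183 symbols listed, with 29 of the 33299 transcript rows. Of these, 3 encode ligands (Bdnf, Ntf3 and Gdnf) and 5 encode receptors (Ngfr, Ntrk2, Ntrk3, Sort1 and Gfra1). Some other genes of the same families were kept in separate lists and are described after them.

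RNA of the MCECs was sequenced as 2 libraries, 1 per group. HG+HBS cells received high glucose and the vehicle HBS, a HEPES-buffered saline, and HG+PC-NVs cells received high glucose and nanovesicles made by extruding cultured mouse cavernous pericytes. High glucose was thus shared by both groups, for 5 days by the sample labels and for a shorter exposure by the study's methods, and cultures in normal glucose were not analysed here. The cells were primary cultures grown out of penile tissue of adult male C57BL/6J mice, and the number of animals behind each library is not given in the sources used here. With 1 library per group there is no replicate check, so no difference below was tested and no p-value is given.

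Neurotrophins are secreted proteins that support the survival and outgrowth of neurons. They are made as precursors, cleaved by proprotein convertases and extracellular proteases, and bind Trk receptor tyrosine kinases, with p75NTR as a shared receptor that also binds the precursors together with sortilin. GDNF-family ligands bind a GFRα co-receptor on the cell surface, which then engages the receptor tyrosine kinase Ret. In the penis, the cavernous nerves depend on such factors, and the study asked whether pericyte vesicles preserve nerve and vessel function in diabetes.

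All values are FPKM, fragments scaled to transcript length and library size, normalized by the authors and summed here over the rows of a gene. Ratios are HG+PC-NVs over HG+HBS on the log2(FPKM + 1) scale, which understates the change of low genes. Low values recurred at multiples of what 1 fragment is worth, which corresponds to about 13340000 fragments for HG+HBS and 11560000 fragments for HG+PC-NVs. These totals come from normalized values, so they include any scaling by the authors and are not library sizes read from counts. Fragment numbers given below are approximate and use the shortest RefSeq-matched transcript of each gene. Intervals are exact 95% intervals that cover counting error only, not the spread between cultures.

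The labelled cell type was checked against marker genes. Of 12 endothelial markers, 5 reached 1 FPKM in HG+HBS against 3 with PC-NVs, with Pecam1 at 1.05 and 0.938 FPKM and Kdr at 0.518 and 0.438 FPKM, and the summed level of the list was 36.4 and 29.4 FPKM. All 8 fibroblast markers lay at 36.3 FPKM or more in both libraries, with Thy1 at 549 and 412 FPKM and a summed level of 2042 and 2363 FPKM. Of these 8, 7 were lower with PC-NVs, with a median log2 ratio of -0.26, and the higher sum came from Dcn (623 and 1283 FPKM). Both libraries thus held far more RNA of the fibroblast markers than of the endothelial ones. The levels below can therefore not be read as those of endothelial cells alone. Of 13 neuron markers, 2 reached 1 FPKM in each library, Tubb3 and Snap25, while Th and Dbh were listed at 0 in both, and of 10 Schwann and glial markers the 2 that did were S100b and Pmp22. Between HG+HBS and HG+PC-NVs, the summed level of the smooth muscle list was 72.0 and 37.0 FPKM, that of the pericyte list 102 and 94.0 FPKM and that of the myeloid list 306 and 536 FPKM. Genes within the last 2 lists differed in direction. Of the pericyte markers, Rgs5 (1.69 and 7.23 FPKM) and Kcnj8 (7.98 and 20.4 FPKM) were higher past 2-fold, and 5 of the 8 were lower. Of the myeloid markers, Cd14 (36.6 and 252 FPKM), Adgre1 and Aif1 were higher past 2-fold, and 3 of the 8, Lyz2, Cd68 and Csf1r, were lower. The 4 smooth muscle markers with at least 1 FPKM in at least 1 library were all lower. Of these, Acta2 (27.6 and 8.02 FPKM) and Tagln (17.3 and 7.34 FPKM) were lower past 2-fold. Of the 12109 genes with at least 1 FPKM in at least 1 library, 2.52% were higher past 2-fold and 0.867% lower. The part of these cell types in the results was not tested, and in bulk RNA fewer cells of a type and less RNA per cell cannot be told apart.

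**Figure D1:**
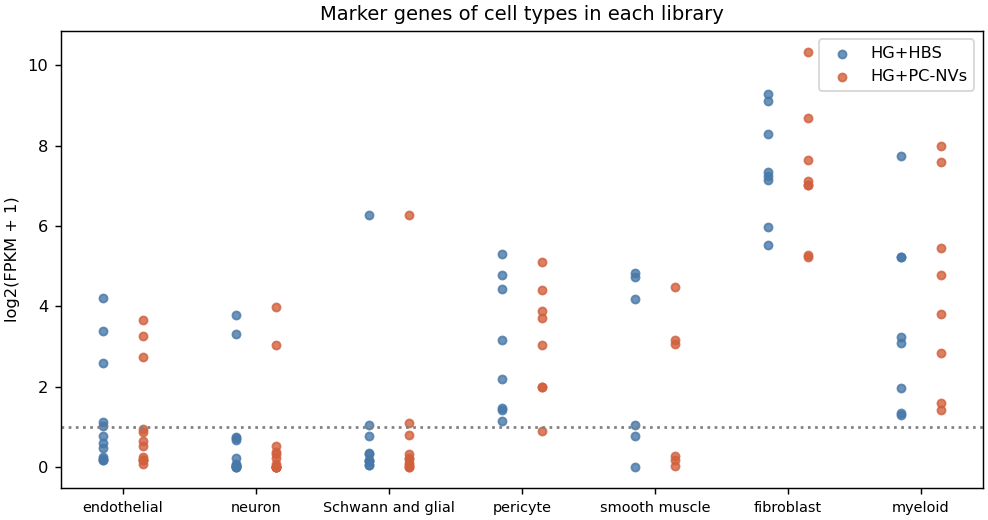
Levels of cell type markers on the log2(FPKM + 1) scale, 1 point per gene and library, with HG+HBS in blue, HG+PC-NVs in orange and the dotted line at 1 FPKM. The endothelial, neuron and glial genes lie mostly below the line, and the 8 fibroblast genes lie far above it in both libraries.

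The 250 bases before annotated transcription starts are shown for the ligand Bdnf, which has 11 rows and several starts, for Gdnf, the member with the highest ratio on the log2(FPKM + 1) scale, and for Ntrk2, the member with the lowest. Both Bdnf windows were chosen because they hold matches. Sequences are from RefSeq on GRCm38.p6, whose starts can differ from those of GENCODE, and lie on the forward strand, in windows free of annotated exons. Capitals mark matches, on either strand, to the letters of AP-1 (TGANTCA), the GC box (GGGCGG), the TATA motif (TATAAA) or the κB consensus. The windows printed are chr2:109676782-109677031 and chr2:109694159-109694408 for Bdnf, chr15:7809798-7810047 for Gdnf and chr13:58806319-58806568 for Ntrk2.
Bdnf, upstream window: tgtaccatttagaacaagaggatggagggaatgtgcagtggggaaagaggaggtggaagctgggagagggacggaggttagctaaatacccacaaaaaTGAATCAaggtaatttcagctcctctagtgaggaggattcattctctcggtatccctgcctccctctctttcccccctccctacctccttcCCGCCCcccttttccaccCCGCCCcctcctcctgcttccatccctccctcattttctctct
Bdnf, downstream window: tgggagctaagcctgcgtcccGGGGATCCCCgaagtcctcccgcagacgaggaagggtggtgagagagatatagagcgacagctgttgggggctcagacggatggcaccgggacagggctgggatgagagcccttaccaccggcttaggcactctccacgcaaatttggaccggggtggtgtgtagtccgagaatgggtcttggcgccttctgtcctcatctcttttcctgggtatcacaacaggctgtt
Gdnf: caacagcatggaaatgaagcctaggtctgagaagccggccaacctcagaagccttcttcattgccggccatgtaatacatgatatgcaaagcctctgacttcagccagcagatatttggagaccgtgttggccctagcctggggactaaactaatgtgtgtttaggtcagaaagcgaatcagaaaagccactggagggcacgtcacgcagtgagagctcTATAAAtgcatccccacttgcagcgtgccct
Ntrk2: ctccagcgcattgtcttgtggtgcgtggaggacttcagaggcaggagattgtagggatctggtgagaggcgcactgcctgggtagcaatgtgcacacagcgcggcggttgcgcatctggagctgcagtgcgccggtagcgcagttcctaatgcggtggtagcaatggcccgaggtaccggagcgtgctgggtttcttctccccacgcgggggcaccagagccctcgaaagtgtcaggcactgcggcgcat

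Promoter windows were listed for 6 of the 8 members, 14 in all, of which 7 belong to Bdnf. None of the 6 motifs searched was found in 6 of the 14, and 4 of these 6 belong to Bdnf. Of the printed Bdnf windows, the upstream one holds 1 AP-1 match and 2 GC boxes, and the downstream one 1 κB match. AP-1 letters occur in 6.75% of the 32851 windows of this length in the genome table, the κB consensus in 7.25%, the GC box in 32.7% and the TATA motif in 12.4%. The printed Gdnf window holds 1 TATA match, and the other Gdnf window, not printed, holds none of the motifs. The Ntrk2 window also holds none of the motifs, which included the E-box (CACGTG, 6.02% of windows) and the CRE (TGACGTCA, 1.55%). The CRE letters were in 0 of the 14 member windows, and no match of one motif overlapped that of another. A match is a description of the letters and not a bound site.

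On the log2(FPKM + 1) scale, none of the 8 members differed more than 2-fold between the libraries. Without the pseudocount, the linear ratio was past 2-fold for a pair of low members, Ntf3 (0.473) and Ntrk3 (0.140). With at least 1 FPKM in at least 1 library, 6 members passed the filter on low values (Bdnf, Ntf3, Gdnf, Ntrk2, Sort1 and Gfra1), and 0 of them passed the fold threshold, against 3.39% of the 12109 genes that passed the filter. That background was 2.52% for genes higher in HG+PC-NVs and 0.867% for genes lower in it. At 3.39%, fewer than 1 gene in 6 would pass by the background share alone, so the count of 0 does not set the members apart. The log2 ratios of the 6 ran from -0.65 to 0.46 with a median of -0.27, against -0.01 over all 12109 genes. Of the 6, 2 had a ratio above 0 and 4 below 0. The level intervals of the libraries were apart for 3 of the 6, Gdnf, Ntrk2 and Sort1. The same was so for 32.8% of the 11617 genes that passed the filter and had a RefSeq-matched transcript, with 21.1% at a mean log2 value from 1 to 3 and 32.1% from 3 to 5. Intervals that lie apart were thus common at all these levels and do not set the 3 members apart. The interval of the log2 ratio is a less strict rule and also excludes 0 for Bdnf and Ntf3, whose level intervals overlap. The share of all genes under that rule was not computed.

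**Figure D2:**
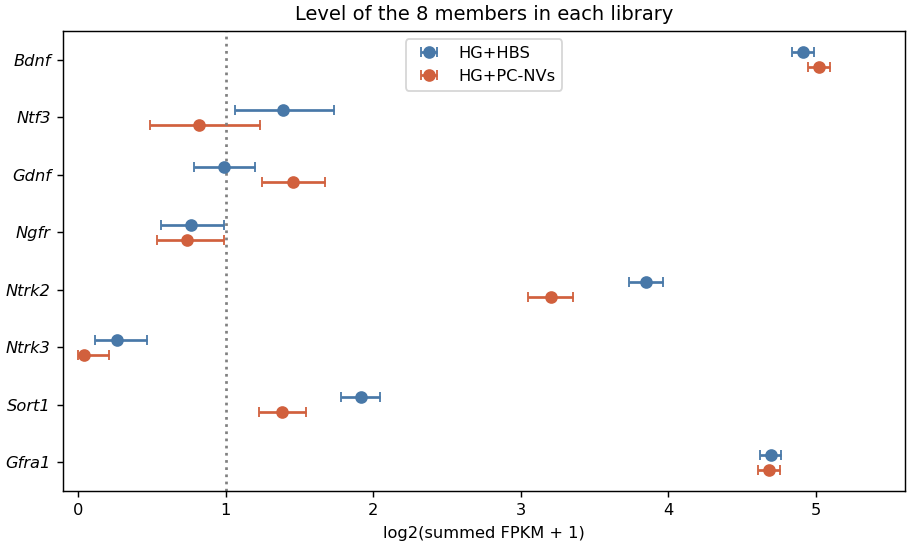
Level of each member on the log2(summed FPKM + 1) scale, with HG+HBS in blue, HG+PC-NVs in orange, bars for the exact 95% counting interval and the dotted line at 1 FPKM. Bdnf and Gfra1 are the highest in both libraries, and the intervals of the libraries are apart for Ntrk2, Sort1 and Gdnf.

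The study's own thresholds of a fold change over 4 and a log2 value over 6 were not reached by any member. No member had a log2 value over 6 in either library, the highest being Bdnf at 5.02 in HG+PC-NVs. Of the 1191 genes above 6 in both libraries, 7 or 0.588% passed the 4-fold limit.

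Among the ligands, Bdnf, brain-derived neurotrophic factor, which signals through TrkB, was by far the most abundant. Its level was 29.1 FPKM in HG+HBS (27.6 to 30.6) against 31.5 FPKM with PC-NVs (29.8 to 33.2), on about 1438 and 1349 fragments. The libraries were close, with overlapping intervals and a log2 ratio of 0.11 (0.01 to 0.21). Among the 4932 genes of similar level (mean log2 value from 3 to 5), of which 2.74% passed 2-fold, 62.4% had a larger absolute ratio. With upper-quartile scaling, which moves the median log2 ratio of all genes by -0.172, the ratio of Bdnf changed sign, to -0.08. Bdnf lies on chromosome 2 of GRCm38 from 109674700 to 109727007 on the forward strand (GENCODE M21, as all gene positions here).

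The 11 rows of Bdnf stand against 12 curated RefSeq transcripts, which differ mainly in their first exon. A single row held 58.5% of the gene's FPKM in HG+HBS against 57.9% with PC-NVs. A second held 24.8% and 25.1%, and a further one 11.0% and 10.6%. The makeup of the gene was thus nearly the same in both libraries. Another 3 rows were listed at 0 in both. The deposited rows carry only the symbol, so none can be tied to a promoter shown above.

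Ntf3 encodes neurotrophin-3, the ligand of TrkC, and lies on chromosome 6 from 126101412 to 126166910 on the reverse strand. It was listed at 1.62 FPKM in HG+HBS (1.08 to 2.32) against 0.765 FPKM with PC-NVs (0.399 to 1.35). The value was lower with PC-NVs, but rests on only about 29.0 and 11.9 fragments. The level intervals of the libraries overlap, while the interval of the ratio lies just below equality. The log2 ratio was -0.57 (-1.04 to -0.03), and the linear ratio 0.473 (0.222 to 0.965). In HG+HBS, 62.4% of the FPKM came from the row that made up all of the level in HG+PC-NVs. That row alone differed less, with 1.01 and 0.765 FPKM and a log2 ratio of -0.19.

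Gdnf, glial cell line-derived neurotrophic factor, was the only ligand whose intervals did not overlap, and the value was higher with PC-NVs. It was listed at 0.986 FPKM in HG+HBS (0.722 to 1.30) against 1.74 FPKM with PC-NVs (1.37 to 2.19), on about 48.3 and 73.9 fragments, and the log2 ratio was 0.46 (0.17 to 0.76). Both rows that carried nearly all of its level were higher, with log2 ratios of 0.33 each. Of the 4201 genes with a mean log2 value from 1 to 3, 3.95% passed 2-fold and 17.2% had a larger absolute ratio than Gdnf. Without the pseudocount of 1, the linear ratio was 1.76 (1.22 to 2.61). The gene lies on chromosome 15 from 7810846 to 7837575 on the forward strand.

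Among the receptors, Ntrk2, which encodes TrkB, the receptor of BDNF, had the lowest log2 ratio of the members with the pseudocount of 1. With a pseudocount of 0.1 its ratio was -0.70, and those of Ntrk3 (-1.24), Ntf3 (-0.99) and Sort1 (-0.75) were lower. It was listed at 13.4 FPKM in HG+HBS (12.3 to 14.6) against 8.20 FPKM with PC-NVs (7.28 to 9.20), on about 545 and 289 fragments, or 1562 and 829 if the longest transcript is assumed. The level was lower with PC-NVs and the intervals did not overlap, with a log2 ratio of -0.65 (-0.84 to -0.46), a 1.56-fold difference on the scale with the pseudocount. Of the genes of similar level, 2.21% had a lower ratio and 5.74% a larger absolute ratio. Of its 3 rows, 1 held 95.8% of the FPKM in HG+HBS against 95.5% with PC-NVs, and had by itself a log2 ratio of -0.65. Ntrk2 is known to give a full-length kinase and truncated forms without the kinase, and which of them the row stands for is not given in the files. The gene lies on chromosome 13 from 58806569 to 59133970 on the forward strand.

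Ntrk3, which encodes TrkC, the receptor of neurotrophin-3, was near the limit of detection. It was listed at 0.202 FPKM in HG+HBS (0.0838 to 0.382) against 0.0284 FPKM with PC-NVs (0.000708 to 0.156). These levels rest on about 8.35 and 1.01 fragments, the second below the floor of 3 fragments, and on 53.2 and 6.47 fragments if the longest transcript is assumed. The linear ratio was 0.140, with an interval of 0.00325 to 1.08 for the shortest transcript and 0.0459 to 0.304 for the longest. Whether the difference exceeded counting error thus depends on the transcript assumed. Ntrk3 lies on chromosome 7 from 78175959 to 78738012 on the reverse strand.

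Ngfr encodes p75NTR, a receptor of all neurotrophins, and has a single row. Its level was 0.700 FPKM in HG+HBS (0.476 to 0.983) against 0.669 FPKM with PC-NVs (0.447 to 0.986), on about 32.2 and 26.6 fragments. The values lay close together below the filter of 1 FPKM, with a log2 ratio of -0.03 (-0.33 to 0.30). The interval leaves room for a linear ratio from 0.561 to 1.68. Ngfr lies on chromosome 11 from 95568818 to 95587735 on the reverse strand.

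Sort1 encodes sortilin, a sorting receptor that partners with p75NTR and carries proteins between the Golgi, endosomes and the cell surface. Sort1 stood at 2.77 FPKM in HG+HBS (2.44 to 3.13) against 1.60 FPKM with PC-NVs (1.34 to 1.91), on about 251 and 126 fragments. The value was lower with PC-NVs and the intervals did not overlap, with a log2 ratio of -0.53 (-0.74 to -0.32). Of the genes of similar level, 13.5% had a larger absolute ratio. In HG+HBS, 81.1% of the FPKM came from the row that held all of it in HG+PC-NVs, and the other row was listed at 0 there. By the higher row alone, the log2 ratio was -0.32. Sort1 lies on chromosome 3 from 108284082 to 108361511 on the forward strand.

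Gfra1 encodes GFRα1, the co-receptor of GDNF, and was the most abundant receptor. Levels were 24.9 FPKM in HG+HBS (23.6 to 26.2) against 24.7 FPKM with PC-NVs (23.3 to 26.1), on about 1466 and 1259 fragments. The libraries were nearly equal, with a log2 ratio of -0.01 (-0.12 to 0.09), and the counting interval of the linear ratio ran from 0.918 to 1.07. A pair of rows shared the level, with 67.8% and 32.2% in HG+HBS against 65.8% and 34.2% with PC-NVs, and the third row was listed at 0 in both. Gfra1 lies on chromosome 19 from 58235604 to 58455909 on the reverse strand.

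**Figure D3:**
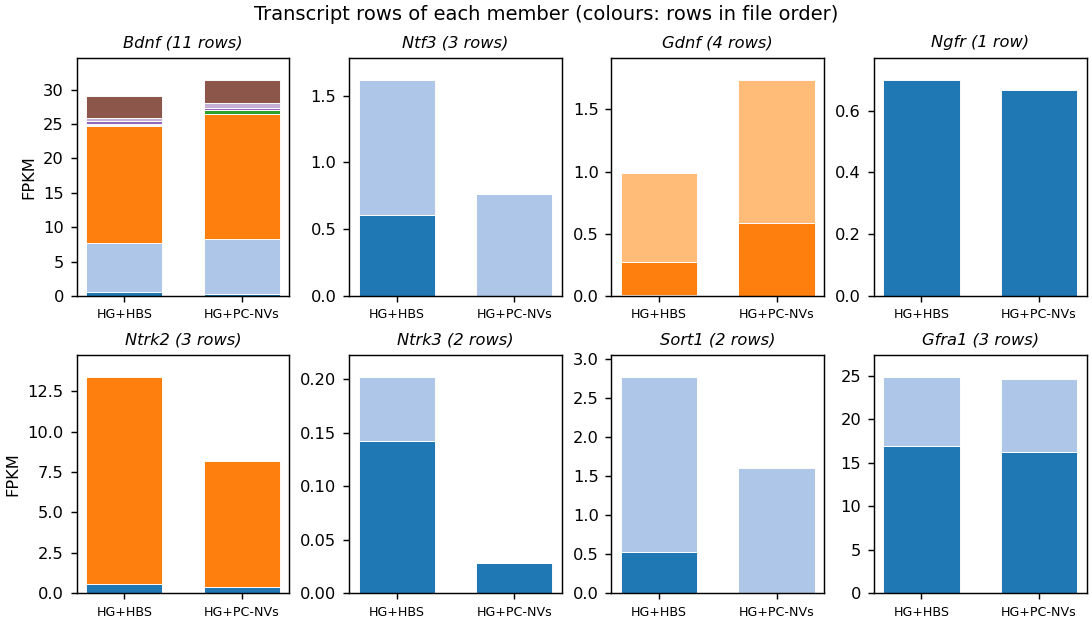
FPKM of each transcript row of the 8 members, stacked per library, with colours in file order, the number of rows in each title and a separate vertical scale per gene. The shares of the rows of Bdnf, Ntrk2 and Gfra1 were nearly the same in both libraries, while 2 rows of Ntf3 (0.605 and 0.00475 FPKM in HG+HBS) and 1 of Sort1 (0.523 FPKM) were above 0 in HG+HBS and listed at 0 with PC-NVs. The same was so for 1 row each of Bdnf (0.113 FPKM in HG+HBS), Gdnf (0.0105 FPKM) and Ntrk3 (0.0599 FPKM).

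The order of levels in HG+HBS was Bdnf, Gfra1, Ntrk2, Sort1, Ntf3, Gdnf, Ngfr and Ntrk3. Of these neighbours, Ntf3 and Gdnf had overlapping counting intervals, as did Gdnf and Ngfr. In HG+PC-NVs the order was Bdnf, Gfra1, Ntrk2, Gdnf, Sort1, Ntf3, Ngfr and Ntrk3, and the intervals of Gdnf and Sort1, of Sort1 and Ntf3, and of Ntf3 and Ngfr overlapped. The first 3 genes and the last were thus the same in both libraries. By level among all symbols, Bdnf ranked 2804 in HG+HBS against 2656 with PC-NVs, and Ntrk2 ranked 5266 and 7034. Taken as pairs, the ligand Bdnf and its receptor Ntrk2 were both well above 1 FPKM in each library. Gdnf was listed at a far lower level than its co-receptor Gfra1, and both Ntf3 and its receptor Ntrk3 were low.

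**Figure D4:**
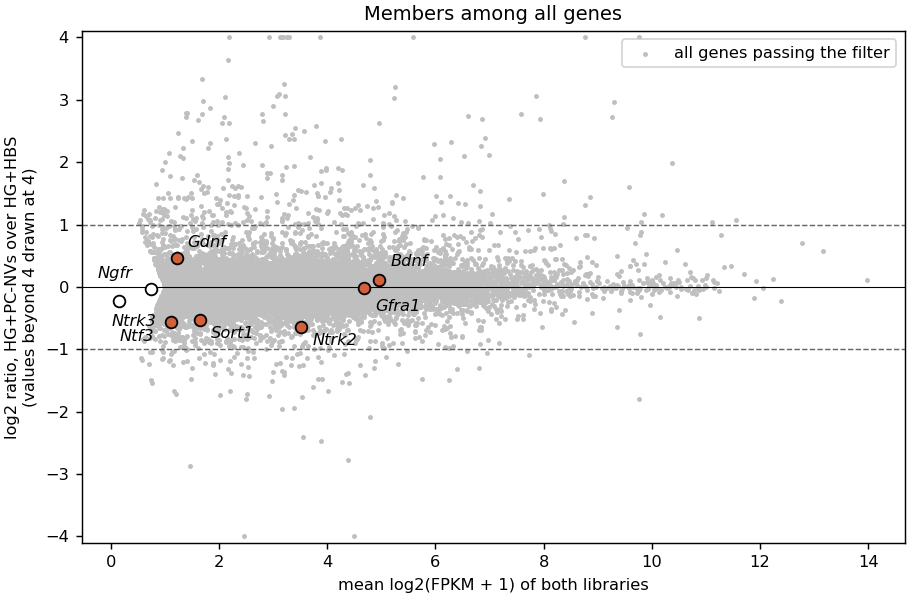
Log2 ratio of HG+PC-NVs over HG+HBS against the mean log2(FPKM + 1) of both libraries, with genes that passed the filter in grey, the 6 members that passed in orange, Ngfr and Ntrk3 as open circles and dashed lines at 2-fold. All members lie between the dashed lines, Ntrk2 the lowest at -0.65 and Gdnf the highest at 0.46.

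For each of the 6 members that passed the filter, the gene nearest to it by Euclidean distance over both log2 values was noted. These were Mrpl22 for Bdnf (distance 0.0109), Tmem11 for Gfra1 (0.0119) and Btbd11 for Ntrk2 (0.0292). For the lower members they were Spaca6 for Sort1 (0.00898), Sept4 for Ntf3 (0.00888) and 6330418K02Rik for Gdnf (0.0228). With only 2 libraries this likeness says no more than that the values are close.

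Of 5 other ligands examined here, 2 passed the filter, and neither was past 2-fold, against 3.39% of all genes. Nrtn, neurturin, was listed at 2.56 and 2.52 FPKM. Gdf15, a distant relative of GDNF and the highest of this list, was listed at 4.69 and 8.48 FPKM with a log2 ratio of 0.74. Ntf5, Artn and Pspn stayed below 1 FPKM in both libraries.

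Of 10 other receptors and co-receptors examined here, 6 passed the filter and 1 (16.7%) was past 2-fold, against 3.39% of all genes. Gfra2, the co-receptor of neurturin, was higher, with 1.54 FPKM in HG+HBS against 5.35 FPKM with PC-NVs and a log2 ratio of 1.32 (0.88 to 1.75). Ret, the signalling receptor that Gfra1 needs for GDNF, was listed at 0.105 and 0.0945 FPKM, below the filter in each library. Ncam1, an alternative partner of GFRα1 and the highest of this list in HG+HBS, was listed at 5.79 and 4.52 FPKM. Sorcs2, a relative of sortilin, was listed at 3.74 and 1.58 FPKM with a log2 ratio of -0.88.

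Proteases that cleave neurotrophin precursors or activate such proteases held the most calls of these lists, with 4 of the 9 genes that passed the filter (44.4%) past 2-fold, against 3.39% of all genes. The list is short and was chosen with earlier results of these data known, so this share does not measure an enrichment. Mmp9 was higher (3.10 and 13.5 FPKM, log2 ratio 1.83), as were Pcsk5, a proprotein convertase (9.53 and 22.9 FPKM, 1.18), and Mmp3 (2076 and 4364 FPKM, 1.07). With quantile normalization, and with upper-quartile scaling, Mmp3 no longer passed 2-fold. Plat, tissue plasminogen activator, was lower, with 32.8 and 12.0 FPKM and a log2 ratio of -1.37. Furin, a convertase of the Golgi, was listed at 61.9 and 79.7 FPKM.

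Downstream of the receptors, 0 of 21 genes for Trk and Ret adaptors and 0 of 18 for partners of p75NTR passed 2-fold. The share of all genes was 3.39%, so a count of 0 in lists of this size does not set them apart. The adaptor count was 1 with upper-quartile scaling, a pseudocount of 0.1 or only the highest row, against 3.37%, 5.5% and 3.89% of all genes. The p75NTR count was 1 with the pseudocount of 0.1. The median log2 ratios of these lists were -0.06 and 0.07. The highest of the adaptors was Shc1, with 176 and 142 FPKM, and the highest p75NTR partner was Arhgdia, with 265 and 256 FPKM. Of other neurotrophic factors, 0 of 4 were past 2-fold, again against 3.39% of all genes, with Nenf the highest at 98.3 and 102 FPKM. Nrg1, neuregulin 1, was close to the limit, with 2.61 and 6.15 FPKM and a log2 ratio of 0.99, and passed it with a pseudocount of 0.1. Of 10 genes known to be inducible by neurotrophins in neurons, 5 passed the filter and 2 (40% of the 5) were higher past 2-fold, against 2.52% of all genes. Whether neurotrophins induced them here was not tested. The 2 higher genes were Gap43, a growth cone protein (22.1 and 57.6 FPKM, log2 ratio 1.34), and Nr4a1, an immediate early transcription factor (15.8 and 49.5 FPKM, 1.59), while Egr1, the highest of the list in HG+HBS, was listed at 24.7 and 24.8 FPKM. Over all these lists together, 7 of the 65 genes that passed the filter (10.8%) were past 2-fold, 6 higher and 1 lower, against 3.39% of all genes (2.52% higher and 0.867% lower), and the median log2 ratio was 0.01. All the lists were chosen with earlier results of these data known, so shares above that of all genes do not measure an enrichment.

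**Figure D5:**
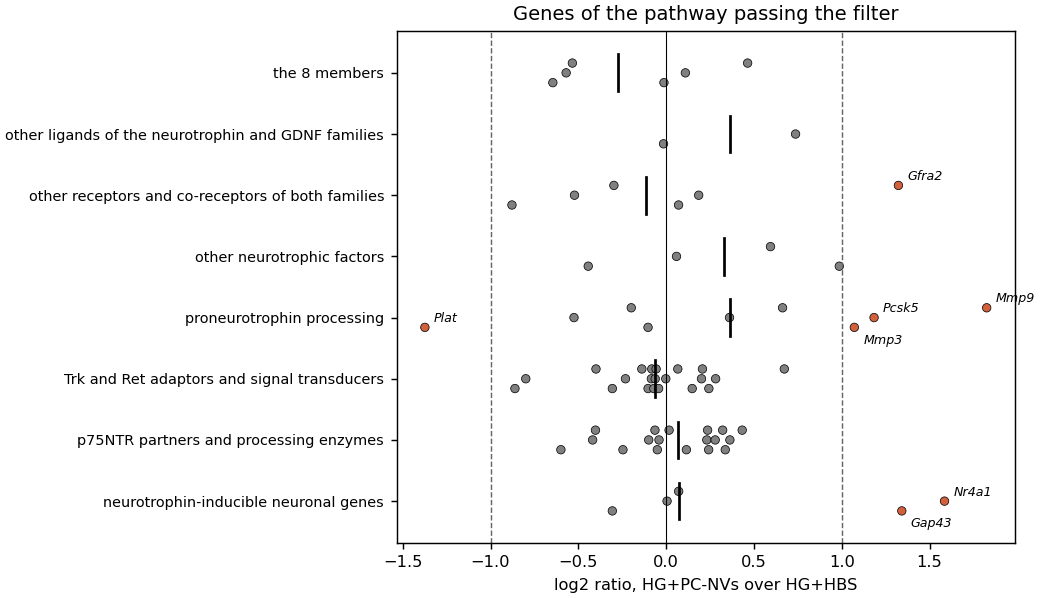
Log2 ratio of HG+PC-NVs over HG+HBS for the genes of each list that passed the filter, 1 point per gene, with a bar at the median, dashed lines at 2-fold and genes past it in orange with their names. The 6 members that passed stay between the lines, and 7 genes of the other lists lie outside them, 6 to the right and Plat to the left.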

How the data were processed

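RNA of 1 library per group was sequenced by the authors from MCECs, with stranded libraries after poly(A) selection. The authors trimmed reads, mapped them to mm10 with TopHat, estimated FPKM with Cufflinks and normalized them with edgeR, under the name of quantile normalization. Versions and the annotation are not given in the sources used here. The authors deposited log2 values, read from their range as log2(normalized FPKM + 1), without any gene identifier but the symbol.

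Values were converted to FPKM, summed over the rows of a symbol and compared as log2 ratios with a pseudocount of 1. Genes with at least 1 FPKM in at least 1 library were counted, and those past 2-fold were called. No test was possible with 1 library per group. No further normalization was applied, since the authors had normalized the values.

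The FPKM of 1 fragment was taken as the highest peak of FPKM times transcript length over 2189 genes with 1 row and 1 annotated transcript over 1500 nt. The next peak lay at 1.995 times (HG+HBS) and 2.005 times (HG+PC-NVs) that value. Clopper-Pearson intervals for ratios and Poisson intervals for levels used these fragments, which depend on the transcript assumed. Of the symbols, 95.5% were in GENCODE M21 (GRCm38, the build of mm10). Row numbers equalled the curated RefSeq transcripts for 7 of 8 members. Annotated genes on either strand overlap Bdnf, Ntrk2, Ntrk3, Sort1 and Gfra1, none of them listed as a row. Whether counting used strand is not stated, so their reads cannot be told apart.

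The members and gene lists were chosen with earlier results of these data known. Named genes were all members, list genes past 2-fold and the highest gene of each list; the others (Nrtn, Ntf5, Artn, Pspn, Ret, Sorcs2, Furin, Nrg1 and the marker genes) were added after their values were seen. Some genes of the lists are not reported here and were left out of the list counts. The calculations were tested on simulated data. The tools were matplotlib 3.10.9, scipy 1.17.1, pandas 2.3.3 and numpy 2.4.6, run under Python 3.11.15.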

Additional observations from a re-analysis of the deposited data

How the results depend on the processing

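The count of members past 2-fold was 0 with quantile normalization, median centring, upper-quartile scaling, a pseudocount of 0.1, only the highest row of each gene, no filter, a filter of 1 FPKM in both libraries and a 4-fold limit. It was 1 (Ntrk2) with a 1.5-fold limit, where 9.49% of all genes passed. With a pseudocount of 0.1, Ntrk3 was past 2-fold (-1.24) but did not pass the filter, so it was not counted. The setting without a filter kept the pseudocount of 1. No member passed the study's thresholds with quantile normalization or with a log2 value over 6 in at least 1 library. Of the 65 genes of the other lists that passed the filter, 7 were past 2-fold, against 3.39% of all genes. They numbered 12 with a pseudocount of 0.1, 16 with a 1.5-fold limit and 0 with a 4-fold limit. The share of all genes moved as well, to 5.5%, 9.49% and 0.677%. With the other alternatives the list genes past 2-fold numbered 6 to 8, against 1.77% to 3.89% of all genes. Of 40 alternative log2 ratios of the members, 34 stayed within the counting interval, 6 did not and 1 changed sign, that of Bdnf with upper-quartile scaling. Those outside were Bdnf and Gfra1 with upper-quartile scaling (-0.08 and -0.20), Gdnf, Ntrk3 and Sort1 with a pseudocount of 0.1 (0.76, -1.24 and -0.75) and Sort1 by its highest row (-0.32). The intervals were those of the main setting with the pseudocount of 1, so the ratios with 0.1 lie on another scale. Upper-quartile scaling moved the median log2 ratio of all genes by -0.172. Other causes were not tested.

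No paired analysis was possible because each group holds 1 library, and leaving out a library would leave no comparison. The share of all genes whose intervals lie apart was computed after seeing the data. Depth limits Ntrk3, Ntf3 and Ngfr, each on about 32.2 fragments or fewer per library if the shortest transcript is assumed.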
